A study of Mus musculus with 9 samples.

Results

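Transcript levels of 10 genes for chondrocyte transcription factors were examined, out of 55471 genes in the RNA-seq files. They are the SOX genes Sox9, Sox5, Sox6 and Sox8, the RUNX genes Runx1, Runx2 and Runx3, and Nkx3-2, Mef2c and Trps1. These genes were taken by name, as factors known to set the chondrocyte programme, and with earlier results of these data known. All 10 passed the filter on low counts that left 15362 genes for testing.

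The study asked how the collagen receptor OSCAR (osteoclast-associated receptor) changes transcription in cartilage cells, and what 5-ASA (mesalazine, an anti-inflammatory drug) does to those changes. Primary articular chondrocytes were taken at postnatal day 5 from the knees (femoral condyle and tibial plateau cartilage) of wild-type mice, grown for 3 days and exposed to adenovirus at 400 MOI for 2 h. Of the 3 groups, Ad-Control cells received a control adenovirus, Ad-OSCAR cells a virus carrying Oscar, and Ad-OSCAR + 5-ASA cells that virus and, 36 h later, the drug. Each group had 3 cultures, and per the study's methods all were plated on a collagen II peptide (COLpep) that OSCAR binds. The MOI and times are those of the labels, and the study's methods for the RNA-seq disagree with them, naming a shorter culture before infection, a higher MOI and the drug straight after infection. The labels give no genotype beyond wild type, and do not say whether the cultures came from different animals, so the p-values measure the spread between these cultures, which may be technical. No culture received the drug without Ad-OSCAR, and OSCAR came from a virus rather than from the gene of the cell itself.

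SOX9 is the factor that makes a mesenchymal cell a chondrocyte: it binds enhancers of collagen II, aggrecan and most other cartilage matrix genes. SOX5 and SOX6, which lack a transactivation domain of their own, bind beside it as dimers and strengthen its action, and the 3 together are called the SOX trio. RUNX2, with MEF2C, drives growth plate chondrocytes to hypertrophy, a step that NKX3-2 opposes and that TRPS1 also restrains, whereas RUNX1 is the RUNX factor most associated with articular cartilage.

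The libraries held 19733431 to 28192725 estimated counts, and the Oscar gene checked the virus named in the labels. Its counts were 4, 3 and 4 in the Ad-Control cultures, 187278, 173445 and 179480 in the Ad-OSCAR cultures, and 91718, 80766 and 94199 in the cultures with 5-ASA. Every culture thus matched the virus of its label, whereas Oscar counts cannot by themselves check which cultures received 5-ASA. Taking the labels as given, Oscar itself fell by 0.97 ± 0.06 on the log2 scale with 5-ASA (SE, n = 3, adjusted p = 1.76e-08, edgeR quasi-likelihood test). Cells with 5-ASA therefore differed from Ad-OSCAR cells in the level of the receptor as well as in the drug, and the part of either in the values below cannot be told apart. The Ad-Control cells had the markers of chondrocytes, with a mean of 12071 TPM (RSEM's level per transcript length, scaled to the library) for Col2a1, the chain of collagen II, and 609 TPM for Acan, the core protein of aggrecan. Markers of fibroblasts or dedifferentiated chondrocytes were present there too, with 8713 to 8945 TPM summed over 10 genes.

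Promoter windows from RefSeq (GRCm38.p6; 250 bases before and 50 after a start site) were found for 8 of the 10 genes, in 17 windows. The distal windows of the 3 RUNX genes are shown because these genes, which did not all move the same way, share a sequence there. The longest run of letters common to all 3 windows was 18 bases, in capitals below, and holds 2 copies of ACCACA, the complement of the RUNX motif TGTGGT. Each line gives 30 bases on the strand of the gene, from chr16:92826025-92826054 (- strand), chr17:44814583-44814612 (- strand) and chr4:135120503-135120532 (+ strand).
Runx1: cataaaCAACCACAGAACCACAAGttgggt
Runx2: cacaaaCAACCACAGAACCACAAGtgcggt
Runx3: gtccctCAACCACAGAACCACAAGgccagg
The run begins 26 bases after the start site in Runx1, 21 bases after it in Runx2 and 136 bases before it in Runx3. It occurred on either strand in 4 of 32851 windows (0.0122%), the fourth being that of Gm16225, whose window lies on the other strand of the same stretch as that of Runx3. The motif TGTGGT alone, on either strand, was found in 16.8% of all windows and in 1 of 2 windows of Runx1, 1 of 1 of Runx2, 1 of 2 of Runx3 and 2 of 6 of Sox6.

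Sox6 has 6 windows, more than any other of these genes, and 5 of them held the SOX motif ACAAAG or its complement CTTTGT, against 18.7% of all windows. Of 3 windows of Mef2c, 2 also held it, and none of the windows of Sox5, Sox8, Nkx3-2 or the RUNX genes did. The first match in each Sox6 window is shown in capitals, on the - strand, because Sox6 is a SOX gene that fell together with Sox9. In order, the lines come from chr7:116038840-116038869, chr7:116031197-116031226, chr7:115995211-115995240, chr7:115846167-115846196 and chr7:115824823-115824852.
Sox6 window 1: tttttttcaggaACAAAGggaatgtggaaa
Sox6 window 2: ctctcttctgtcCTTTGTagtcacatgtcc
Sox6 window 3: caccaagccggcCTTTGTtagtcattgtga
Sox6 window 4: tgaatgtgcaaaACAAAGataaaagctatg
Sox6 window 5: tcccctgtgctcACAAAGggctcataactt
The motifs TGTGGT and ACAAAG were chosen after the sequences were seen, so their shares against all windows are descriptive only. These matches are letters in a window, and no binding was measured.

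OSCAR overexpression changed all 10 genes at an adjusted p below 0.05, with 3 higher and 7 lower. Sox9 and its close relative Sox8 fell most, Sox6 and Sox5 of the same trio moved in opposite directions, and of the RUNX genes Runx1 and Runx2 rose while Runx3 fell. The background was broad, since 65.0% of all genes tested passed the same threshold in this comparison, 32.7% as higher and 32.2% as lower. The values of the groups in CPM (counts scaled to the TMM-normalized library) did not overlap for any of the 10 genes, as was so for 69.0% of all genes, and the same held in TPM (10 of 10, against 63.3%). The median log2 fold change of the 10 was -0.96, against 0.02 for all genes tested, and their median size of change was 1.09, against 0.38. The 10 genes and the gene lists below were chosen with earlier results of these data known, so their contrasts with all genes are descriptive only. In bulk RNA, fewer cells that express a gene and less RNA per cell cannot be told apart.

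**Figure D1:**
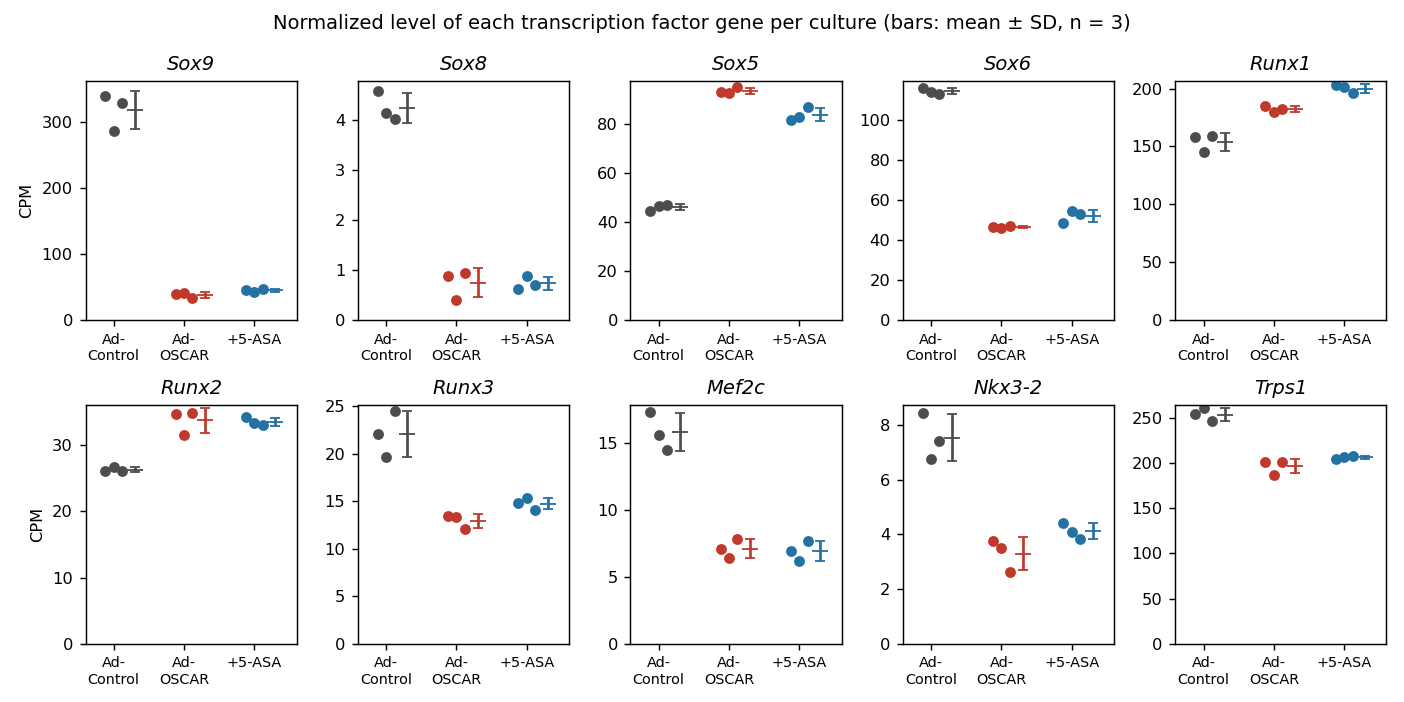
Normalized level (CPM, y axes from 0) of each of the 10 genes in every culture, with the mean ± SD of 3 cultures beside the points of each group. Sox9 stood at 286 to 339.9 CPM in Ad-Control and at 33.6 to 41.5 CPM in Ad-OSCAR, while Sox5 rose from 44.6 to 46.9 up to 92.5 to 94.9 CPM; with 5-ASA most genes stayed near their Ad-OSCAR level.

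Sox9 (chr11:112782224-112787760, + strand; GENCODE M21 on GRCm38) was measured at 339.9, 286 and 328 CPM in the Ad-Control cultures and at 39.3, 41.5 and 33.6 CPM in the Ad-OSCAR cultures. The highest Ad-OSCAR culture was thus far below the lowest control. The log2 fold change was -3.06 ± 0.08 (SE, n = 3), or 8.34-fold lower, with an adjusted p of 1.93e-16, and the fall ranked 240 among the falls of all 15362 genes. In TPM, Sox9 was above 93.2% of the genes tested in Ad-Control cells and above 54.0% in Ad-OSCAR cells.

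Sox8 (chr17:25565892-25570686, - strand), a SOX gene of the same group as Sox9, was the least abundant, with 97, 101 and 76 counts in Ad-Control and 26, 10 and 26 in Ad-OSCAR. The control counts were all above those with OSCAR, and the difference was 5.57-fold (log2 fold change -2.48 ± 0.23, SE, n = 3; adjusted p = 2.82e-08). The antisense gene 2810468N07Rik overlaps its 5′ end and had 16, 24 and 19 counts in Ad-Control against 45, 41 and 49 in Ad-OSCAR, so it was higher where Sox8 was lower. Whether counting used strand is not given in the sources used here, and reads of the shared stretch might belong to either gene.

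Sox6 (chr7:115470872-116038796, - strand) was measured at 116, 114 and 113 CPM in Ad-Control and at 46.6, 45.8 and 47.0 CPM in Ad-OSCAR. Its cultures varied little within each group and lay far apart between them, with a log2 fold change of -1.30 ± 0.05 (SE, n = 3; adjusted p = 6.04e-14), or 2.46-fold lower. Sox5 (chr6:143828425-144781977, - strand), the partner with which SOX6 forms dimers, went the other way, from 44.6, 46.4 and 46.9 CPM to 93.1, 92.5 and 94.9 CPM. All Ad-OSCAR cultures were above all controls, and the gene was 2.03-fold higher (log2 fold change 1.02 ± 0.05, SE, n = 3; adjusted p = 9.66e-13). The other genes that overlap Sox5 or Sox6 had at most 3 counts in any culture.

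These opposite changes turned the make-up of the SOX trio around. Of the summed TPM of Sox9, Sox5 and Sox6, Sox9 made up 69.5% ± 1.78 (SD, n = 3) in Ad-Control cells and 23.6% ± 1.88 in Ad-OSCAR cells. Sox5 went from 9.92% ± 2.61 to 52.3% ± 1.53 and became the largest part, whereas Sox6 went only from 20.5% ± 1.47 to 24.1% ± 0.536. The sum itself fell from 190.3 ± 11.8 to 68.6 ± 1.34 TPM, so the trio as a whole was lower even though Sox5 was higher. In TPM the ratio of Sox5 to Sox6 was 0.489 ± 0.151 in Ad-Control and 2.17 ± 0.0542 in Ad-OSCAR cells, with no overlap of the cultures. An exact two-sided permutation test of 3 cultures against 3 cannot go below 0.10, and the sum, the Sox9 and Sox5 shares and this ratio all reached that value.

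**Figure D2:**
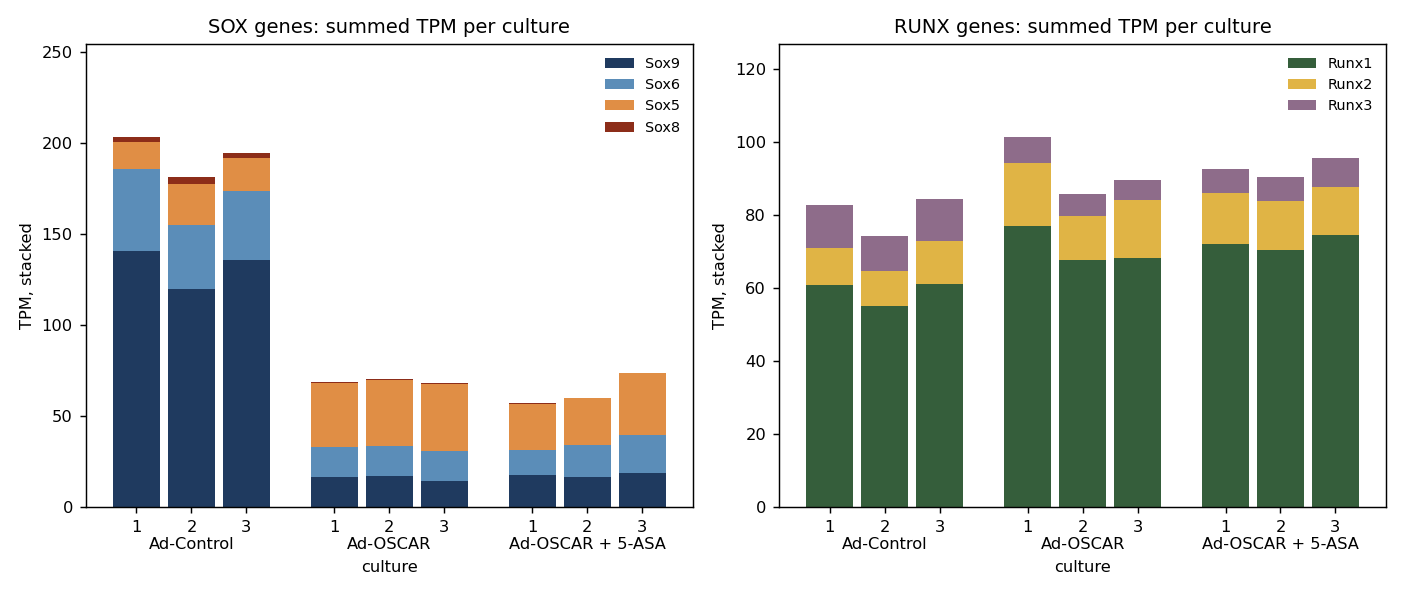
Stacked TPM (y axes from 0) of the SOX genes on the left and the RUNX genes on the right, with 1 bar per culture. The Sox9 part shrank from 120.0 to 141 TPM in Ad-Control to 14.5 to 17.3 TPM in Ad-OSCAR, where Sox5 was the largest SOX part, while Runx1 was the largest RUNX part in all 9 cultures.

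The RUNX genes moved less. Runx1 (chr16:92601466-92826149, - strand) was measured at 158, 145 and 159 CPM in Ad-Control and at 185, 179.8 and 182 CPM in Ad-OSCAR. Runx2 (chr17:44495987-44814797, - strand), the factor of hypertrophy and bone, went from 26.1, 26.7 and 26.1 to 34.8, 31.6 and 34.9 CPM. Both genes were higher in every Ad-OSCAR culture than in any control, by log2 fold changes of 0.25 ± 0.05 (adjusted p = 1.40e-04) and 0.36 ± 0.05 (adjusted p = 1.28e-05; SE, n = 3). Runx2 overlaps Supt3 on the opposite strand, which had 132 to 187 counts per culture, against 493 to 1027 for Runx2.

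Runx3 (chr4:135120652-135177990, + strand), which shares the work of RUNX2 in chondrocyte maturation, fell from 22.1, 19.6 and 24.5 CPM to 13.4, 13.3 and 12.1 CPM. Its lowest control was above its highest Ad-OSCAR culture (log2 fold change -0.77 ± 0.08, SE, n = 3; adjusted p = 2.00e-07). The share of Runx3 in the summed TPM of the RUNX genes was 13.6% ± 0.656 in Ad-Control and 6.77% ± 0.460 in Ad-OSCAR cells (SD, n = 3), and Runx1 held 73.5% ± 0.918 and 77.0% ± 1.84. The sum of the 3 genes was 80.5 ± 5.44 TPM in Ad-Control and 92.2 ± 8.25 TPM in Ad-OSCAR, higher in every Ad-OSCAR culture than in any control.

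Mef2c (chr13:83504034-83667080, + strand), which works with RUNX2 in hypertrophy, was measured at 17.3, 15.6 and 14.5 CPM in Ad-Control and at 7.06, 6.40 and 7.82 CPM in Ad-OSCAR. The values were well apart, and Mef2c thus fell while Runx2 rose (log2 fold change of Mef2c -1.15 ± 0.10, SE, n = 3; adjusted p = 1.10e-08). Nkx3-2 (chr5:41761483-41764501, - strand), the repressor of hypertrophy, went from 8.45, 6.74 and 7.40 to 3.77, 3.49 and 2.62 CPM. It was lower in every Ad-OSCAR culture, by a log2 fold change of -1.19 ± 0.14 (SE, n = 3; adjusted p = 7.01e-07).

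Trps1 (chr15:50654752-50890463, - strand), a zinc finger repressor whose loss causes a skeletal dysplasia in humans, was measured at 254, 260.3 and 246 CPM in Ad-Control and at 201, 187 and 201 CPM in Ad-OSCAR. The fall was the smallest of the 7, but without overlap (log2 fold change -0.37 ± 0.04, SE, n = 3; adjusted p = 8.06e-07). By the larger cutoff of the study, a log2 fold change beyond 1.5 either way with an adjusted p below 0.05, only Sox9 and Sox8 were called, 2 of the 10 genes against 9.96% of all genes tested. Sox8 did not reach this cutoff with limma on log2(TPM + 1), a scale that understates the change of low genes, where its log2 fold change was -1.43.

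Compared per length, the order of the 10 genes changed. In Ad-Control cells, Sox9 led with 132 ± 11.2 TPM (SD, n = 3), followed by Runx1 (59.1 ± 3.39) and Trps1 (55.7 ± 1.19), which overlapped each other. Sox6 (39.2 ± 4.94), Sox5 (18.7 ± 3.74), Runx3 (11 ± 1.19), Runx2 (10.4 ± 1.15), Mef2c (8.63 ± 0.780), Nkx3-2 (8.12 ± 0.901) and Sox8 (2.99 ± 0.645) came next in TPM, of which Runx3 overlapped Runx2, and Mef2c overlapped Nkx3-2. In Ad-OSCAR cells, Runx1 led with 70.9 ± 5.20 TPM, ahead of Trps1 (41.1 ± 3.06) and Sox5 (35.9 ± 0.937), with no overlap between neighbours. Sox9 stood behind them with 16.2 ± 1.51 TPM, between Sox6 (16.5 ± 0.0586) and Runx2 (15.0 ± 2.86), and overlapped both. The last 4 places were held by Runx3 (6.25 ± 0.799), Mef2c (4.12 ± 1.64), Nkx3-2 (3.61 ± 0.632) and Sox8 (0.473 ± 0.201 TPM), with only Nkx3-2 and Sox8 free of overlap.

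5-ASA moved the same genes much less. Against Ad-OSCAR cells, 2 of the 10 genes were higher and 1 was lower at an adjusted p below 0.05, namely Sox9 and Sox6 higher and Sox5 lower. Of all genes tested, 17.8% passed in this comparison, 10.4% as higher and 7.38% as lower. The groups in CPM did not overlap for 7 of the 10 genes, against 33.8% of all genes, but in TPM only for 1 of the 10, Sox5, against 34.5%. With limma on log2(TPM + 1), none of the 10 passed. The study's methods state a cutoff for 5-ASA-treated cells against Ad-Control, a fold change beyond 1.5 with an unadjusted p below 0.05. Applied here against Ad-OSCAR cells instead, it called none of the 10, against 4.15% of all genes. The median log2 fold change of the 10 was 0.10, and the median size of change was 0.15 against 0.12 for all genes tested. The Ad-OSCAR cultures entered both this comparison and the one before it, so the values stand side by side here and no agreement between them is read.

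With 5-ASA, Sox9 was measured at 45.7, 42.4 and 46.8 CPM, just above the 33.6 to 41.5 CPM of the Ad-OSCAR cultures and far below the controls. The log2 fold change was 0.24 ± 0.08 (SE, n = 3; adjusted p = 0.0414), against -3.06 for OSCAR. This call rested on single libraries: without Ad-OSCAR replicate 3, the culture with the least Sox9, it was 0.15 with an adjusted p of 0.212. The adjusted p was also 0.0768 without Ad-OSCAR replicate 1, 0.121 without 5-ASA replicate 1 and 0.128 without 5-ASA replicate 3. On log2(TPM + 1) the log2 fold change of Sox9 was 0.14 (adjusted p = 0.304, limma).

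Sox6 was measured at 48.5, 54.3 and 52.8 CPM with 5-ASA, again above every Ad-OSCAR culture and below every control. The log2 fold change was 0.16 ± 0.05 (SE, n = 3; adjusted p = 0.0359), and the adjusted p rose above 0.05 without any one of Ad-Control replicate 1, the 3 Ad-OSCAR replicates, or 5-ASA replicates 2 and 3, up to 0.139. The Sox6 call was also lost without a filter on low counts (adjusted p = 0.0613) and in a fit of only the 2 groups (adjusted p = 0.0653), and on log2(TPM + 1) the change was 0.04 (adjusted p = 0.864, limma). Sox5 was measured at 81.6, 82.9 and 86.7 CPM, below every Ad-OSCAR culture and above every control. Its log2 fold change was -0.16 ± 0.04 (SE, n = 3; adjusted p = 0.0172), and the adjusted p was 0.0503 without Ad-OSCAR replicate 1, 0.0530 without Ad-OSCAR replicate 3 and 0.0992 without 5-ASA replicate 1. On log2(TPM + 1) it was -0.35 (adjusted p = 0.122, limma).

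The trio remained in its Ad-OSCAR state for the larger part. Its summed TPM was 63.5 ± 8.94 (SD, n = 3) with 5-ASA, which overlapped the 68.6 ± 1.34 of Ad-OSCAR cells. Sox9 made up 28.5% ± 2.89 of it, Sox5 44.4% ± 1.59 and Sox6 27.1% ± 3.05. The Sox5 share was below that of each Ad-OSCAR culture, and the ratio of Sox5 to Sox6 in TPM was 1.65 ± 0.223 against 2.17 ± 0.0542.

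Among the other genes, Runx1 was measured at 203, 201 and 196 CPM with 5-ASA, above every Ad-OSCAR culture and farther from the controls. Its log2 fold change of 0.13 ± 0.05 did not pass the test (SE, n = 3, adjusted p = 0.0534). Runx1 did pass without Ad-Control replicate 2 (adjusted p = 0.0382), with RLE scaling (adjusted p = 0.0475) and with a floor of 10 counts per culture (adjusted p = 0.0450). It also passed in DESeq2 (adjusted p = 0.0155), whereas on log2(TPM + 1) the change was 0.03 (adjusted p = 0.779, limma). Runx3 (log2 fold change 0.19 ± 0.08; adjusted p = 0.142), Nkx3-2 (0.32 ± 0.15; adjusted p = 0.154) and Trps1 (0.07 ± 0.04; adjusted p = 0.316) had CPM values above all Ad-OSCAR cultures and did not pass. Sox8 (-0.04 ± 0.29; adjusted p = 0.950), Mef2c (-0.04 ± 0.11; adjusted p = 0.862) and Runx2 (-0.01 ± 0.05; adjusted p = 0.908) overlapped with the Ad-OSCAR cultures. For Sox8, with 16, 24 and 18 counts with 5-ASA, a change of the size of the others was not detectable at this depth.

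**Figure D3:**
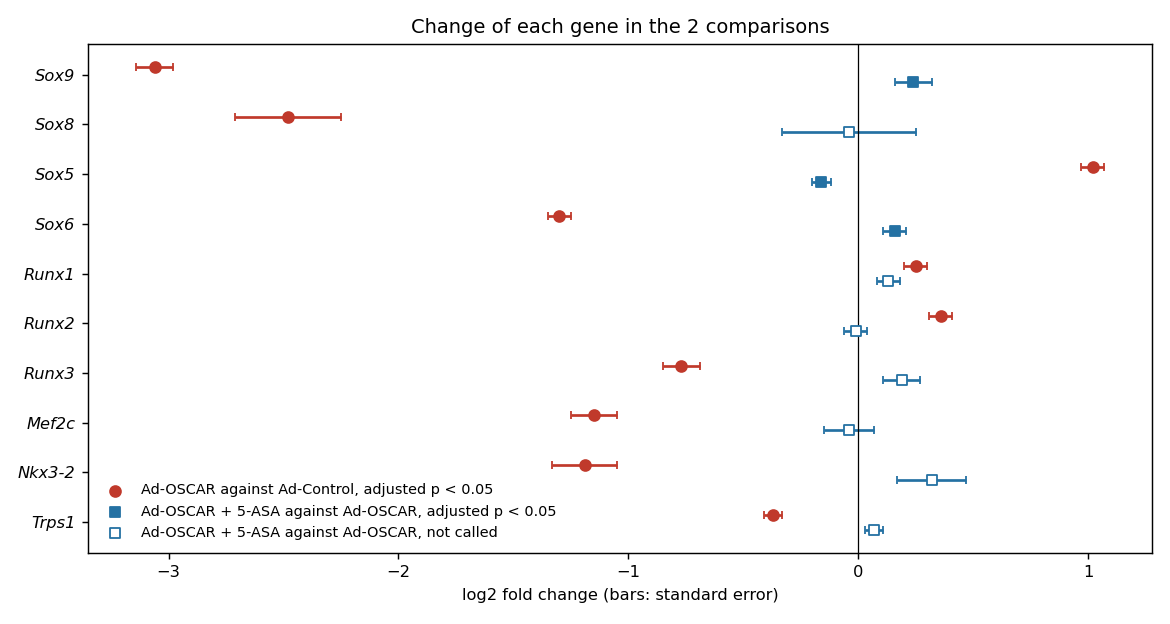
Log2 fold change (x axis; bars, standard error) of each of the 10 genes with OSCAR (circles) and with 5-ASA on top of OSCAR (squares); filled symbols passed an adjusted p below 0.05. With OSCAR the changes ran from -3.06 for Sox9 to 1.02 for Sox5, and with 5-ASA from -0.16 for Sox5 to 0.32 for Nkx3-2.

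Set against Ad-Control rather than Ad-OSCAR, cells with OSCAR and 5-ASA still differed in all 10 genes, with 3 higher and 7 lower. In that comparison 63.2% of all genes passed, 31.4% as higher and 31.8% as lower, and the CPM of the groups did not overlap for all 10 genes against 66.6% of all, as in TPM (10 of 10, against 61.1%). The log2 fold changes were -2.82 for Sox9, -2.52 for Sox8, -1.14 for Sox6 and 0.86 for Sox5, and 0.38 for Runx1, 0.35 for Runx2 and -0.58 for Runx3. Those of Mef2c, Nkx3-2 and Trps1 were -1.19, -0.87 and -0.30. At the 1.5-fold cutoff with an unadjusted p below 0.05, 6 of the 10 were called against 29.9% of all genes, namely Sox9, Sox8, Sox6, Sox5, Nkx3-2 and Mef2c. This is the comparison that the study's methods name for that cutoff.

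The files also give a mean transcript length per gene and culture, weighted by the abundance of the transcripts, which shifts when the use of long and short transcripts shifts. Sox9 and Nkx3-2 have 1 annotated transcript each and a fixed length of 4135 and 1718 bases, and the other 8 genes varied. Only Trps1 had lengths that did not overlap between groups. They were 7648, 7791 and 7597 bases in Ad-Control, 8078, 8362 and 8203 bases in Ad-OSCAR, and 8584, 8503 and 8397 bases with 5-ASA. The mean length of Trps1 was thus greater in Ad-OSCAR than in Ad-Control cells, and greater again with 5-ASA, while its CPM was lower in both groups than in Ad-Control. Of all genes whose length varied, 16.5% did not overlap with OSCAR, 10.9% with 5-ASA on top of OSCAR and 17.7% between cells with 5-ASA and Ad-Control. The share of 1 of 8 lay within the range of these values. The lengths are estimates of RSEM with no error given, and were not tested. For Sox5 they ranged from 3605 to 5263 bases and for Mef2c from 2415 to 4599 bases with overlap of the groups, and the TPM of these genes carry that spread.

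**Figure D4:**
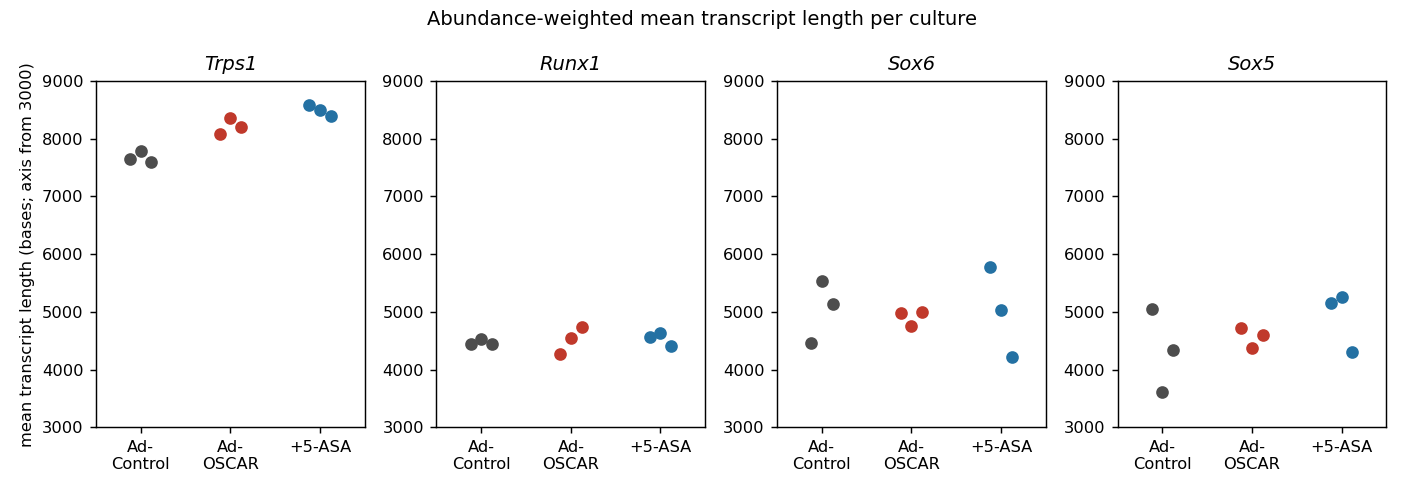
Mean transcript length in bases (y axis not from 0) of Trps1, Runx1, Sox6 and Sox5 in each culture. The Trps1 cultures lie at 7597 to 7791 bases in Ad-Control, 8078 to 8362 in Ad-OSCAR and 8397 to 8584 with 5-ASA, whereas the groups overlap for the other genes.

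The cartilage matrix genes that SOX9 and the SOX trio are known to activate were lower with OSCAR without exception: of 20 genes listed, all 20 were tested, 0 rose and 20 fell, where 65.0% of all genes passed. Their median log2 fold change was -4.04, against 0.02 for all genes. Col2a1 fell from 33857 ± 2574 to 2159 ± 183 CPM (SD, n = 3; log2 fold change -3.97 ± 0.07, adjusted p = 2.99e-18), and Acan from 2321 ± 146 to 27.9 ± 1.39 CPM (-6.38 ± 0.07, adjusted p = 2.46e-21). The largest falls were those of Ucma, a small secreted cartilage matrix protein (-8.21 ± 0.11, adjusted p = 3.09e-20), and Matn3, the matrix protein matrilin 3 (-7.47 ± 0.16, adjusted p = 2.18e-17), where Ad-OSCAR cultures kept 16 to 23 and 4 to 10 counts. With 5-ASA, 8 of the 20 rose, 0 fell and 12 did not pass, with a median of 0.12, where 17.8% of all genes passed. Col2a1 rose by 0.28 ± 0.06 (adjusted p = 0.00477), Acan by 0.27 ± 0.06 (adjusted p = 0.00496) and Mia, a secreted cartilage protein, by 1.04 ± 0.21 (adjusted p = 0.00208). The sum of their TPM was 18659 to 21075 in Ad-Control, 1626 to 1751 in Ad-OSCAR and 1877 to 2055 with 5-ASA.

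The genes of hypertrophy known to lie under RUNX2 and MEF2C did not move as 1 block. Of 13 listed, 11 were tested, and with OSCAR 5 rose and 6 fell, with a median of -0.24, so all 11 passed against 65.0% of all genes. Mmp9, a gelatinase of cartilage resorption (log2 fold change 2.82 ± 0.16, adjusted p = 2.19e-11), Tnfsf11, the osteoclast factor RANKL (2.37 ± 0.08, adjusted p = 5.39e-15), and Mmp13, the collagenase of hypertrophic chondrocytes (1.21 ± 0.04, adjusted p = 3.58e-14), rose. Col10a1, the collagen that marks hypertrophy, fell by 0.24 ± 0.07 on the log2 scale (adjusted p = 0.00508), from 29.3 to 30.7 CPM in Ad-Control down to 24.6 to 26.5 CPM in Ad-OSCAR. The mineralization genes Ibsp (-2.74 ± 0.12, adjusted p = 5.96e-13) and Alpl (-2.04 ± 0.09, adjusted p = 1.10e-12) fell further. Ihh, the hedgehog ligand of prehypertrophic cells, had 1 to 6 counts in any culture and was not tested.

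With 5-ASA, 4 of the 11 rose, 1 fell and 6 did not pass, or 5 of 11 against 17.8% of all genes. Ibsp rose from 5.14 ± 1.37 to 12.3 ± 0.784 CPM (SD, n = 3; log2 fold change 1.27 ± 0.13, adjusted p = 2.44e-06), and Panx3, a channel of maturing chondrocytes, fell by 0.24 ± 0.08 (adjusted p = 0.0479). Col10a1 (0.07 ± 0.07, adjusted p = 0.544) and Mmp13 (0.12 ± 0.04, adjusted p = 0.0566) did not pass.

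**Figure D5:**
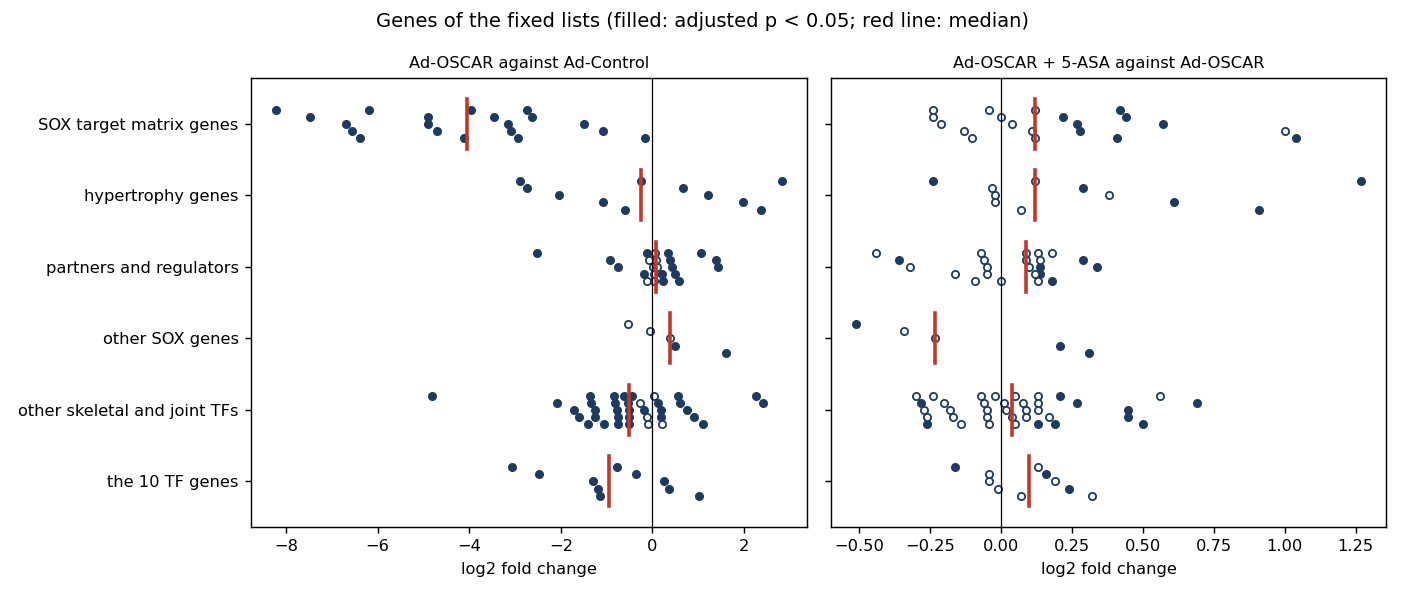
Log2 fold change (x axes, which differ in scale) of each tested gene of the 5 lists and of the 10 genes themselves, with OSCAR on the left and with 5-ASA on top of OSCAR on the right; filled points passed an adjusted p below 0.05 and red lines are medians. All 20 SOX target genes lie below 0 with OSCAR, with a median of -4.04, and their median with 5-ASA is 0.12.

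Of 23 partners and regulators of these factors, 10 rose, 5 fell and 8 did not pass with OSCAR, with a median of 0.08, so 15 of 23 passed against 65.0% of all genes, a share close to the background. Wwp2, a ubiquitin ligase that binds SOX9, fell from 374 ± 17.1 to 64.8 ± 2.65 CPM (SD, n = 3; log2 fold change -2.53 ± 0.05, adjusted p = 7.92e-18), and Tle4, a Groucho corepressor, by 0.93 ± 0.21 (adjusted p = 7.26e-04). Ppargc1a (1.39 ± 0.20, adjusted p = 7.37e-06) and Zfp219 (1.05 ± 0.07, adjusted p = 1.60e-10), both known as coactivators of SOX9, rose. Cbfb, the subunit that every RUNX protein needs to bind DNA firmly, differed little (-0.11 ± 0.05, adjusted p = 0.0441), and Hdac4, which holds back RUNX2 and MEF2C, rose by 0.21 ± 0.06 (adjusted p = 0.00631). With 5-ASA, 5 rose, 1 fell and 17 did not pass, or 6 of 23 against 17.8% of all genes. Runx1t1 rose by 0.34 ± 0.06 (adjusted p = 6.60e-04), and the corepressor gene Tle1, which was 0.49 ± 0.05 higher with OSCAR, fell by 0.36 ± 0.05 (adjusted p = 9.69e-05).

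Of 10 other SOX genes, Sox2, Sox10, Sox15, Sox17 and Sox18 had at most 3 counts in every culture, and 5 were tested. With OSCAR, 2 rose and 3 did not pass, against 65.0% of all genes that passed. Sox11, a SOXC gene of progenitor cells, rose from 17.6 ± 1.07 to 53.3 ± 2.52 CPM (log2 fold change 1.60 ± 0.07, adjusted p = 3.05e-13), and Sox4 of the same group by 0.50 ± 0.05 (adjusted p = 1.14e-07). With 5-ASA these genes parted, as Sox11 fell by 0.51 ± 0.06 (adjusted p = 1.01e-05) and Sox4 rose by 0.31 ± 0.05 (adjusted p = 2.67e-04).

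Of 40 other transcription factors of skeletal and joint cells, 37 were tested, and 10 rose, 22 fell and 5 did not pass with OSCAR, with a median of -0.51, so 32 of 37 passed against 65.0% of all genes. The ETS genes Etv4 (2.42 ± 0.18, adjusted p = 1.45e-09) and Etv1 (2.26 ± 0.07, adjusted p = 3.13e-15) rose most. Foxa2, a FOXA factor of hypertrophic chondrocytes (-4.82 ± 0.34, adjusted p = 5.12e-10), and Dlx5, a homeobox factor of bone and hypertrophic cartilage (-2.09 ± 0.28, adjusted p = 3.69e-06), fell most. Foxa2 had 2 to 5 counts in the Ad-OSCAR cultures against 62 to 78 in the controls. With 5-ASA, 8 rose, 2 fell and 27 did not pass, or 10 of 37 against 17.8% of all genes, with Snai2 up by 0.69 ± 0.06 (adjusted p = 1.55e-07) and Nfatc1 down (-0.28 ± 0.06, adjusted p = 0.00169).

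Genes with a pattern over the 9 cultures most like that of Sox9, by the root mean square difference of log2 CPM from the Ad-Control mean, were Cobl (0.07), Loxl4 (0.12) and Chadl (0.15), out of 13266 genes with a mean of at least 1 CPM. Only 24 genes lay within 0.25 of Sox9. For Sox5 the nearest were Rspo2 (0.04), Esd (0.05) and Repin1 (0.05), and 648 genes lay within 0.25. Runx1 had Ctsh, Tmem176a and Rnf145 (each 0.04) as its nearest and Runx2 had Pi4k2a (0.03), Foxj2 (0.04) and Dpy19l4 (0.04), in a crowd of 3993 and 3827 genes within 0.25. No other of the 10 genes was among these nearest, but Runx1 and Runx2 lay within 0.09 of each other. The closest of the 10 to Sox9 was Sox8 at 0.55 and the closest to Sox5 was Runx2 at 0.49.

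Cell type markers were read as well. All 12 chondrocyte markers fell with OSCAR, where 65.0% of all genes passed. These 12 are also among the 20 SOX target genes above, so they add no separate result. Their summed TPM was 15238 to 17359 in Ad-Control, 899 to 1035 in Ad-OSCAR and 996 to 1182 with 5-ASA. Of 10 markers of fibroblasts or dedifferentiated chondrocytes, 2 rose and 8 fell, against the same 65.0%. Their summed TPM was 8713 to 8945, 8710 to 9140 and 9758 to 9981. Of 12 markers of macrophages and other blood cells, 8 had at most 3 counts in every culture, Ptprc, Adgre1 and Cd3e among them. Of the 3 tested, 2 rose with OSCAR and 1 did not pass. Cd68 rose by 2.06 ± 0.15 (adjusted p = 7.77e-10) and Lyz2 by 0.43 ± 0.14 (adjusted p = 0.0122). The summed TPM of the 12 was 7.84 to 11.1, 20.5 to 22.2 and 16.6 to 17.6. Summed TPM of 8 osteoblast markers was 49.6 to 56.8, 13.3 to 20.3 and 23.4 to 25. That of 7 endothelial markers, with Cdh5, Tie1 and Emcn at 3 counts or fewer, was 0.25 to 0.900, 1.61 to 2.82 and 0.950 to 1.5. The 2 endothelial genes tested rose with OSCAR from low counts, Vwf by 3.11 ± 0.31 (adjusted p = 6.93e-08) and Tek by 1.88 ± 0.25 (adjusted p = 3.20e-06). With 5-ASA they fell, by 1.43 ± 0.24 (adjusted p = 3.46e-04) and 0.69 ± 0.21 (adjusted p = 0.0298). For 7 skeletal muscle markers, 5 of them at 3 counts or fewer, the sum was 4.37 to 4.40, 0.390 to 2.66 and 0.620 to 0.830. For 7 markers of synovial lining and tendon the sum was 192 to 201, 534 to 577 and 439.7 to 494. Of the 5 tested, 4 fell with OSCAR and 1 rose. The latter was Prg4 (lubricin, made by superficial chondrocytes too, and named after its values were seen), 1.86 ± 0.04 higher with OSCAR (adjusted p = 9.80e-17). Prg4 alone went from a mean of 149 TPM in Ad-Control to 531 TPM in Ad-OSCAR. The part of cell make-up in the changes of the 10 genes was not tested.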

How the data were processed

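RNA of 9 chondrocyte cultures was sequenced by the authors as paired reads from stranded mRNA libraries. The authors aligned reads to GRCm38 with STAR 2.7.1a and deposited estimated counts and TPM per gene, made with RSEM 1.3.1, with mean transcript lengths in bases as another deposited score; another RSEM version is also named in the sources, and the strand setting is not given in the sources used here. Symbols and coordinates are from GENCODE M21.

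Estimated counts were rounded and tested over all 9 cultures in edgeR 4.0.16 (R 4.3.3; TMM, filterByExpr, quasi-likelihood F test, group as the only factor, Benjamini-Hochberg over 15362 genes). The biological coefficient of variation was 5.11%, and standard errors were obtained by dividing log2 fold changes by the root of F. The alternatives were RLE and upper-quartile scaling, DESeq2 1.42.0, limma 3.58.1 on log2(TPM + 1), no filter, a floor of 10 counts per culture, fits of 2 groups alone, a replicate block and leaving out each culture. On counts simulated for Ad-OSCAR against Ad-Control over 15362 genes, edgeR recovered 95% of 100 genes set to change by 1 on the log2 scale and called 6 of 15162 unchanged genes. Few genes were set to change, by 1 or 2 and up and down alike, whereas 65.0% of genes passed in the data. Changes of the smaller size seen with 5-ASA were not simulated. Total counts ranged from 19733431 to 28192725, and counting intervals would cover counting error only. Replicates differed by more than sampling noise (chi-square per degree of freedom 4.03 to 7.52).

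The 10 genes and the gene lists were chosen with earlier results of these data known. Besides the 10 genes, the text names from each list up to 2 largest rises and falls with OSCAR and 1 each with 5-ASA, among genes past the threshold, a mean CPM not under 1 and groups that do not overlap; Col2a1, Acan, Col10a1, Mmp13, Ihh, Cbfb, Hdac4 and Oscar; and the 3 genes most like Sox9, Sox5, Runx1 and Runx2. Promoter sequences are from RefSeq, searched with Python 3.11.15. The motifs were chosen after the sequences were seen.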

Additional observations from a re-analysis of the deposited data

How the results depend on the processing

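With OSCAR, and with OSCAR and 5-ASA against Ad-Control, each of the 170 values of the 10 genes under 17 alternatives kept its direction and its call. For 5-ASA against Ad-OSCAR, 138 of 170 did, 20 lost and 4 gained a call (the gains all for Runx1), and 8 changed sign, none of which was called. On leaving out 1 culture the log2 fold change ranged from -0.31 to 0.15 for Sox8 (above 0 without Ad-OSCAR replicate 1 or 3 or 5-ASA replicate 1), from -0.06 to 0.01 for Runx2 (Ad-OSCAR replicate 1 or 3) and from -0.12 to 0.04 for Mef2c (Ad-OSCAR replicate 3 or 5-ASA replicate 2). Trps1 turned to -0.07 on log2(TPM + 1), where Sox8 was -1.43 with OSCAR and -1.48 for OSCAR and 5-ASA against Ad-Control, instead of -2.48 and -2.52, and Trps1 in the latter -0.51 instead of -0.30. Of the 2 genes called higher, 0 remained on log2(TPM + 1), 1 without a filter and 1 in the fit of only the 2 groups. Leaving out a culture gave 0 to 3 higher (3 with Runx1, without Ad-Control replicate 2) and, of 1 called lower, 0 to 1; on log2(TPM + 1) that was 0. Over all genes, 562 were higher on log2(TPM + 1) instead of 1598, and 1487 were lower instead of 1134, so most calls on that scale were lower. Leaving out a culture gave 721 to 1127 lower instead of 1134. Fewer cultures were then fitted, and the cause of the other changes was not tested.

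With the replicate number as a block, 0 of the 10 genes were called higher, with adjusted p of 0.0509 for Sox9 and 0.0567 for Sox6; no other call of the 10 genes changed. Deviations of same-numbered cultures correlated between -0.0724 and 0.0402 over 9 pairs, so that the numbers are not shown to pair the cultures. Across the 17 alternatives, adjusted p-values of the 5-ASA effect lay between 0.00116 and 0.304 for Sox9, 0.0121 and 0.122 for Sox5, 0.0189 and 0.864 for Sox6, and 0.0155 and 0.779 for Runx1. Depth limited Sox8 most, with 10 to 26 counts in Ad-OSCAR cultures.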
